A study of Mus musculus with 8 samples.

Results

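Protocadherins are cell-surface adhesion proteins of the cadherin superfamily, and their genes are described here by the peaks of 3 chromatin immunoprecipitation sequencing (ChIP-seq) libraries. The members are the protein-coding genes on mouse autosomes whose symbols start with Pcdh, 67 of the 20661 autosomal protein-coding genes in the RefSeq annotation of GRCm38.p6. The build named by the submitters, mm10, uses the same coordinates. Of these, 10 stand alone and are called unclustered: Pcdh1, Pcdh7, Pcdh8, Pcdh9, Pcdh10, Pcdh12, Pcdh15, Pcdh17, Pcdh18 and Pcdh20. The other 57 form the alpha cluster (14 genes), the beta cluster (22 genes) and the gamma cluster (21 genes) on chromosome 18. Members were defined by symbol and position, with no peak in the definition, though earlier results of these data were known.

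The libraries came from mouse embryonic fibroblasts (MEF), primary connective tissue cells grown from embryos, here of strain C57BL/6 of embryonic stage E15.5 and used at passages 2 to 4. All 3 were Hmga2 wild-type (Hmga2 wt), with 1 library each for the antibodies against HMGA2, γ-H2AX (labelled H2AXS139ph) and ATM. The wild-type input and the 4 libraries from Hmga2 knockout cells (Hmga2 Ko: HMGA2, γ-H2AX, ATM and input) were not analysed here, so neither a background measured in input nor the effect of losing HMGA2 is given. The number of embryos behind a library is not given in the sources used here, and peak lists hold no expression values with which the fibroblast label or the genotype could be checked.

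HMGA2 is a chromatin protein that binds A/T-rich DNA through its AT-hooks, ATM is a kinase that acts at DNA breaks, and γ-H2AX is the histone variant H2AX carrying the phosphate that ATM can place on it. Clustered protocadherins give neurons individual surface identities. In the alpha and gamma clusters each gene has its own promoter and variable exon, which is spliced to exons shared by the whole cluster, whereas beta genes have no shared exons, and CTCF and cohesin take part in choosing promoters. The unclustered genes mostly encode delta-protocadherins, which guide axons and cell sorting in the nervous system, and Pcdh15 encodes a part of the tip links of inner-ear hair cells.

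The lists held 152834 HMGA2 peaks, 124947 γ-H2AX peaks and 119570 ATM peaks, with median widths of 169, 168 and 167 bp. Each peak has a score from the authors' peak caller, -10 log10 of the p-value, and the lowest score, 20, corresponds to p = 0.01. In every list most peaks lay near that threshold, since 88.4% of HMGA2, 89.7% of γ-H2AX and 89.8% of ATM peaks scored under 30. With 1 library per antibody there is no replicate error and no test between groups. Intervals given below are 95% intervals for counting error only, and depth is not given as a number.

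The promoters of 3 members are printed because HMGA2 peaks lie close to the start sites of Pcdh7 and Pcdh9, the long members densest in HMGA2 peaks, and because the Pcdh20 window had the least G and C of those matched. RefSeq promoter windows (GRCm38.p6), 250 bases before to 50 bases after a start site, were matched for 8 of the 67 members, all unclustered. Each sequence runs 5′ to 3′ along the gene, at chr5:57717831-57718130 (+ strand) for Pcdh7, chr14:93890630-93890929 (- strand) for Pcdh9 and chr14:88471347-88471646 (- strand) for Pcdh20. Capitals mark runs of at least 6 bases made only of A and T, read on either strand.

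Pcdh7: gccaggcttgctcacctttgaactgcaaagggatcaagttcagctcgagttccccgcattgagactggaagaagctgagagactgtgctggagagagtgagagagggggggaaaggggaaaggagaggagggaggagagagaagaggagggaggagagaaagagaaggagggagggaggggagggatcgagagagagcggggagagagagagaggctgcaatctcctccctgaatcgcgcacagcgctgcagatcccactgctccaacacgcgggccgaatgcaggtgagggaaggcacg
Pcdh9: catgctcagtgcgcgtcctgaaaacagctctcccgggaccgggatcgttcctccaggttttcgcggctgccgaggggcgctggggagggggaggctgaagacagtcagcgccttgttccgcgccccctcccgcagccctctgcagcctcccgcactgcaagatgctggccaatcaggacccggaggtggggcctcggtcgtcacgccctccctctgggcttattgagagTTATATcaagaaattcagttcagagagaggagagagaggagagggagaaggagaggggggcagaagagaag
Pcdh20: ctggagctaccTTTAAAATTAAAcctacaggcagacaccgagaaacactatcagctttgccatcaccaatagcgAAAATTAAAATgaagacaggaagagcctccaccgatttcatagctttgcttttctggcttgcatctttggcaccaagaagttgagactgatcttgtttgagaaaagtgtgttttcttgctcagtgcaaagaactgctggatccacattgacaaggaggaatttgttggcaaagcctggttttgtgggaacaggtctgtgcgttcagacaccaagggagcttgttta

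The Pcdh7 window was 59.3% G and C and held no run of 6, the Pcdh9 window was 62.7% and held 1, and the Pcdh20 window was 43.7% and held 2, the longer of 12 bases. Over one RefSeq window for each of 25748 autosomal genes the median was 53.0%, 69.8% held at least 1 run and the median number of runs was 1. Only 18.6% of these windows had less G and C than that of Pcdh20. Of the other 5 windows, those of Pcdh15 and Pcdh8 held 3 runs each, that of Pcdh18 held 1, and those of Pcdh10 and Pcdh17 held 0. None of the 8 windows was touched by a peak of any list. Among the 25748 windows, HMGA2 peaks touched 1.46%, γ-H2AX peaks 3.71% and ATM peaks 1.85%, so that 8 windows are too few to show a difference.

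The nearest peak to any of these start sites was an HMGA2 peak upstream of that of Pcdh7, at 57717637 to 57717810 on chromosome 5 with a score of 20.24. It ended 20 bases short of the printed window and 271 bp from the start site. That start site lies 1.94 kb inside the annotated gene, so that the peak is within the gene body. At Pcdh9 the nearest HMGA2 peak (28.45) lay 1.41 kb upstream of the start site and the nearest γ-H2AX peak (22.29) 2.1 kb upstream. The annotated 5′ end of Pcdh9 is 2.15 kb upstream of that start site, so that the HMGA2 peak is within the body and the γ-H2AX peak spans its end. At Pcdh17, a synaptic delta-protocadherin, an ATM peak (22.14) lay 1.63 kb downstream of the start site. At Pcdh18 peaks of all 3 lists lay close together in the gene body, HMGA2 (27.75) 2.38 kb, ATM (26.46) 2.43 kb and γ-H2AX (22.14) 2.8 kb downstream, and the HMGA2 and ATM peaks overlapped. Of the 8 genes Pcdh8, an activity-regulated synaptic protocadherin, had its start site farthest from HMGA2, with the nearest peak 45.5 kb upstream. For Pcdh15 the RefSeq window lies 726 kb inside the annotated gene, so that it stands for an inner start site.

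HMGA2 peaks lay within the bodies of 7 of the 10 unclustered genes, γ-H2AX peaks within 7 and ATM peaks within 6. Among all 20661 genes, 50.0% had an HMGA2 peak, 56.3% had γ-H2AX and 52.6% had ATM. Length sets much of this count. Of genes under 10 kb, the class of Pcdh8 and Pcdh20, 13.5% held an HMGA2 peak and 15.1% an ATM peak, whereas every gene of 500 kb or more, the class of Pcdh9 and Pcdh15, held peaks of all 3. Pcdh8 had no peak in its body in any list and Pcdh20 had 1 HMGA2 peak. Pcdh12, an endothelial protocadherin of 10 to 30 kb, also had none in any list, in a class in which HMGA2 peaks lay in 48.4%, γ-H2AX peaks in 58.1% and ATM peaks in 51.9% of genes.

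Counted once each, 306 HMGA2 peaks, 149 γ-H2AX peaks and 135 ATM peaks lay in the unclustered bodies, which span 3.07 Mb. HMGA2 density was 99.7 peaks per Mb (88.9 to 112) in the unclustered protocadherins and 59.8 per Mb in all autosomal protein-coding bodies, a ratio of 1.67 (1.49 to 1.87). For γ-H2AX the density was 48.6 per Mb (41.1 to 57.0) in the unclustered protocadherins and 56.7 per Mb in all bodies, a ratio of 0.857 (0.725 to 1.01). ATM density was 44.0 per Mb (36.9 to 52.1) in the unclustered protocadherins and 47.0 per Mb in all bodies, a ratio of 0.937 (0.785 to 1.11). The HMGA2 ratio was thus above 1 beyond counting error, and both others had intervals that include 1. The value is carried by Pcdh7 and Pcdh9: without them, a choice made after the data were seen, the HMGA2 ratio was 1.07 (0.879 to 1.28) and the γ-H2AX ratio 0.587 (0.447 to 0.758). Without Pcdh15, the longest member, the HMGA2 ratio was 2.32 and the γ-H2AX ratio turned to 1.19 (0.968 to 1.44).

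**Figure D1:**
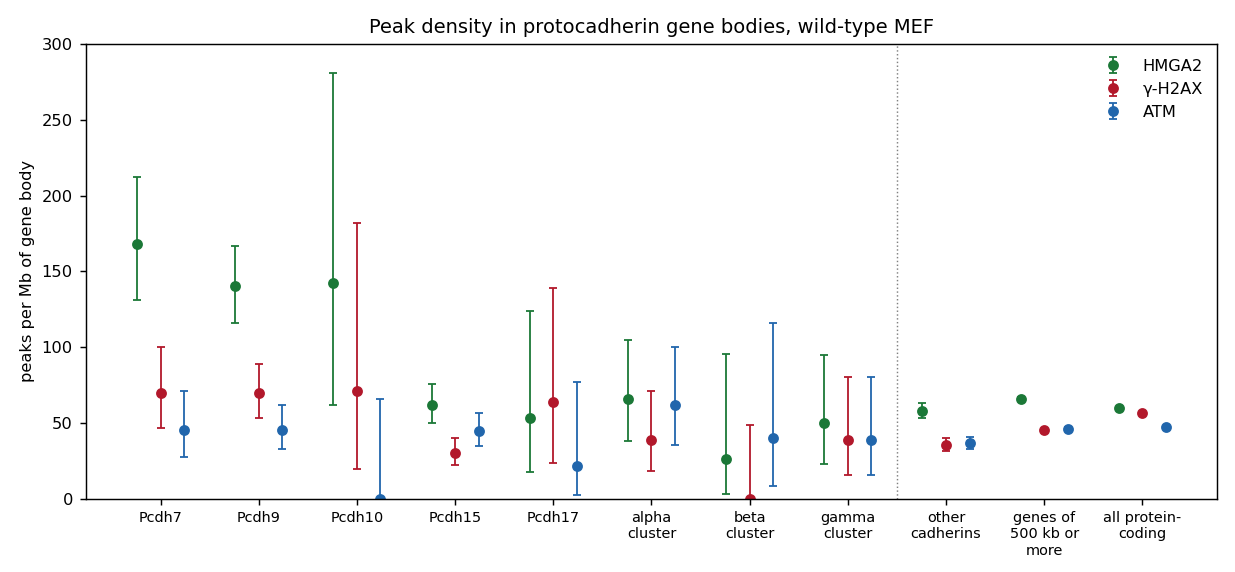
Peaks per Mb of gene body (vertical axis) for HMGA2 (green), γ-H2AX (red) and ATM (blue) in the 5 unclustered protocadherins over 50 kb and the 3 clusters, and right of the dotted line in other cadherins, genes of 500 kb or more and all autosomal protein-coding genes. Bars are exact 95% Poisson intervals; HMGA2 stood at 168 per Mb in Pcdh7 and 140 per Mb in Pcdh9, against 59.8 per Mb in all genes.

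The 3 longest unclustered genes, Pcdh15, Pcdh9 and Pcdh7, hold 92.9% of the unclustered body length, and 94.4% of the HMGA2, 91.9% of the γ-H2AX and 94.8% of the ATM peaks. Pcdh7 (chromosome 5, 57716145 to 58133236, + strand), a delta-protocadherin, held 70 HMGA2, 29 γ-H2AX and 19 ATM peaks. HMGA2 density was 168 per Mb (131 to 212), γ-H2AX density 69.5 (46.6 to 99.9) and ATM density 45.6 (27.4 to 71.1). Pcdh9 (chromosome 14, 93013700 to 93892834, - strand), a neuronal delta-protocadherin, held 123 HMGA2, 61 γ-H2AX and 40 ATM peaks, or 140 (116 to 167), 69.4 (53.1 to 89.1) and 45.5 (32.5 to 62.0) per Mb. In each list the intervals of Pcdh7 and Pcdh9 overlapped.

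Pcdh15 (chromosome 10, 73096277 to 74649831, + strand) was unlike both. It held 96 HMGA2 peaks, 47 γ-H2AX peaks and 69 ATM peaks, or 61.8 (50.1 to 75.5), 30.3 (22.2 to 40.2) and 44.4 (34.6 to 56.2) per Mb. Its HMGA2 and γ-H2AX intervals do not reach those of Pcdh7 and Pcdh9, while its ATM density was close to theirs. The order of HMGA2 density among the long members was thus Pcdh7, Pcdh9, Pcdh15, and only the step down to Pcdh15 exceeded counting error.

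Long genes as a class give the nearest yardstick. The 213 other autosomal genes of 500 kb or more had 65.9 HMGA2, 45.2 γ-H2AX and 46.0 ATM peaks per Mb. They include Gm37013, Gm38666 and Gm38667, which span much of the clustered protocadherin locus. The set of 944 genes that follows includes these and Pcdha1 to Pcdha7. Among 944 genes of 200 kb or more, a set chosen after the data were seen, Pcdh7 ranked 7 from the highest in HMGA2 density, Pcdh9 ranked 25 and Pcdh15 ranked 455, where the median gene had 59.5 per Mb. In γ-H2AX density Pcdh7 ranked 265, Pcdh9 266 and Pcdh15 772, with a median of 50.7 per Mb. In ATM density the 3 genes ranked 513, 515 and 552, with a median of 47.3 per Mb. Pcdh7 and Pcdh9 thus stood high among long genes for HMGA2, less so for γ-H2AX, and near the middle for ATM.

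**Figure D2:**
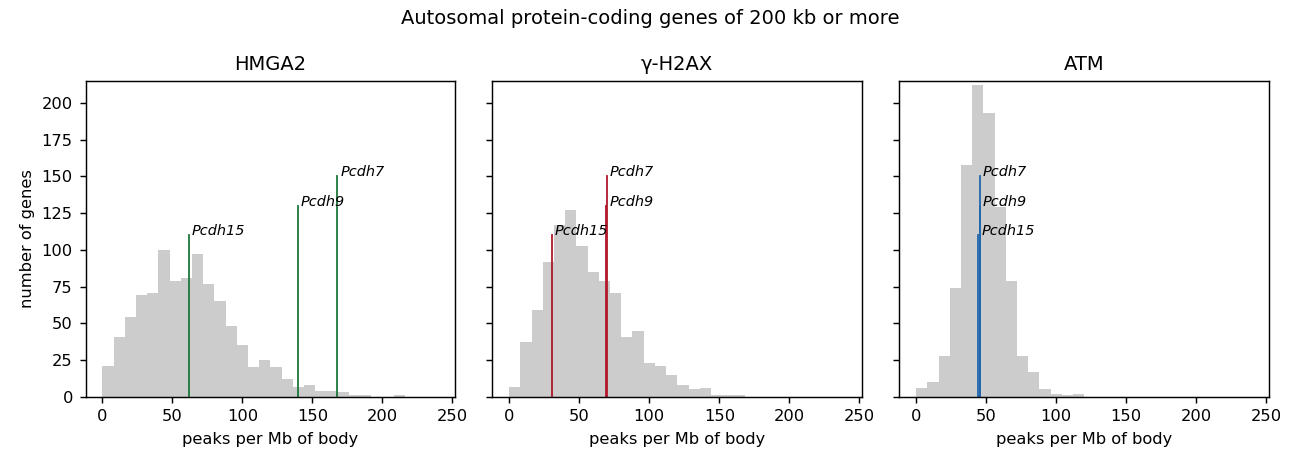
Number of autosomal protein-coding genes (vertical axis) by peaks per Mb of body (horizontal axis) among the 944 genes of 200 kb or more, 1 panel per antibody, with lines at Pcdh7, Pcdh9 and Pcdh15. Pcdh7 at 168 and Pcdh9 at 140 HMGA2 peaks per Mb lie in the upper tail, and all 3 genes lie near the middle for ATM.

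Flanks set each gene, taken singly, against its own region. In pooled ratios this holds less, since bodies count by their length and most genes add 500 kb on either side whatever their length. Over all 10 unclustered genes, bodies had 1.26 (1.10 to 1.44) times the HMGA2 density of the 500 kb on either side, 1.14 (0.934 to 1.38) times the γ-H2AX density and 0.942 (0.77 to 1.15) times the ATM density. Without Pcdh7 and Pcdh9 the HMGA2 ratio was 0.828 (0.67 to 1.02) and the γ-H2AX ratio 0.723 (0.538 to 0.956), and without Pcdh15 they were 1.67 and 1.54. With Pcdh7 and Pcdh9 out, Pcdh15 makes up most of the body length (1.55 Mb) but a smaller part of the flanks (1.0 Mb). The own ratios of Pcdh15 were 1.26 (HMGA2) and 0.84 (γ-H2AX), with intervals that include 1. Pooled values without Pcdh7 and Pcdh9 thus do not show bodies sparser in peaks than their own flanks. The body of Pcdh7 had 168 and its flanks 78 HMGA2 peaks per Mb, a ratio of 2.15 (1.54 to 3.01). For γ-H2AX its body had 69.5 and its flanks 34 per Mb, a ratio of 2.04 (1.2 to 3.46). The ATM values were 45.6 per Mb in the body of Pcdh7 and 55 per Mb in its flanks, a ratio of 0.828 (0.464 to 1.42).

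Pcdh9 was also denser in HMGA2 and γ-H2AX than its flanks. Its HMGA2 density was 140 per Mb in the body and 95 per Mb in the flanks, a ratio of 1.47 (1.12 to 1.95). Its γ-H2AX density was 69.4 per Mb in the body and 28 in the flanks, a ratio of 2.48 (1.56 to 4.03). Its ATM density was 45.5 per Mb in the body and 50 in the flanks, a ratio of 0.91 (0.585 to 1.41). Among the 944 long genes the γ-H2AX ratio of Pcdh9 ranked 14 and that of Pcdh7 ranked 52 from the highest, where the median ratio was 0.971. Their HMGA2 ratios ranked 176 and 43, with a median of 1.02, and their ATM ratios 572 and 683, with a median of 0.997. Pcdh15 had body-to-flank HMGA2, γ-H2AX and ATM ratios of 1.26 (0.885 to 1.82), 0.84 (0.533 to 1.34) and 0.987 (0.668 to 1.47), each with an interval that includes 1.

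**Figure D3:**
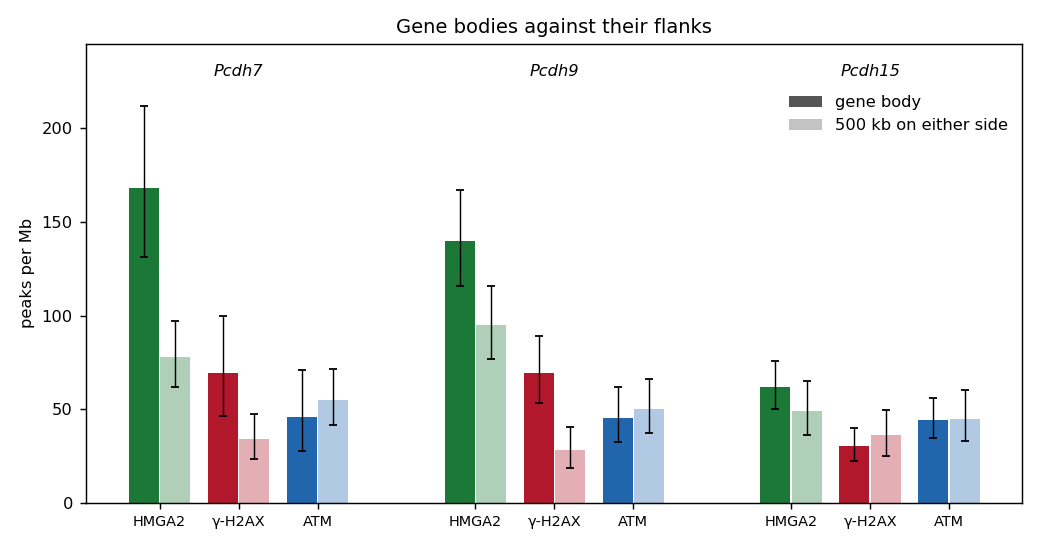
Peaks per Mb (vertical axis) in the gene body (dark bars) and in the 500 kb on either side (light bars) of Pcdh7, Pcdh9 and Pcdh15 for each antibody, with exact 95% Poisson intervals. The γ-H2AX bars stand at 69.5 per Mb in the body and 34 in the flanks of Pcdh7, and at 69.4 in the body and 28 in the flanks of Pcdh9, while the ATM bars of each gene have overlapping intervals.

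The neighbourhoods themselves differed. HMGA2 density in the flanks was 119 per Mb around Pcdh18, 101 around Pcdh10, 97 around Pcdh20, 95 around Pcdh9, 89 around Pcdh17 and 78 around Pcdh7. It was 49 around Pcdh15, 46 around Pcdh8, 40 around Pcdh1 and 36 around Pcdh12. The flanks of Pcdh1 and Pcdh12 on chromosome 18 overlap each other and take in part of the gamma cluster. For ATM the flanks of the 10 genes spanned a smaller range, with 55 per Mb around Pcdh7 and 39 per Mb around Pcdh8 as its ends. For γ-H2AX they spanned 28 per Mb around Pcdh9 to 65 per Mb around Pcdh18. Of the 3 long members, Pcdh15 had the lowest HMGA2 density in its flanks (49 per Mb) as it had in its body (61.8 per Mb), while the γ-H2AX density around Pcdh9 was the lowest of all 10 flanks.

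Along Pcdh7, the 29 γ-H2AX peaks were split 8, 7, 8, 6 and 0 over 5 equal segments of 83.4 kb from the 5′ end, so that the last segment, at the 3′ end, held none. HMGA2 peaks were split there 13, 10, 20, 13 and 14, and ATM peaks as 5, 6, 2, 2 and 4. In Pcdh9 the 5 segments of 176 kb held 29, 26, 19, 20 and 29 HMGA2 peaks, 13, 12, 13, 6 and 17 γ-H2AX peaks, and 8, 13, 6, 6 and 7 ATM peaks. In Pcdh15 the 5 segments of 311 kb held 22, 19, 19, 18 and 18 HMGA2 peaks, 10, 9, 5, 9 and 14 γ-H2AX peaks, and 23, 15, 11, 8 and 12 ATM peaks. HMGA2 peaks were thus spread along all 3 genes, while 23 of the 69 ATM peaks of Pcdh15 lay in the segment at its 5′ end.

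**Figure D4:**
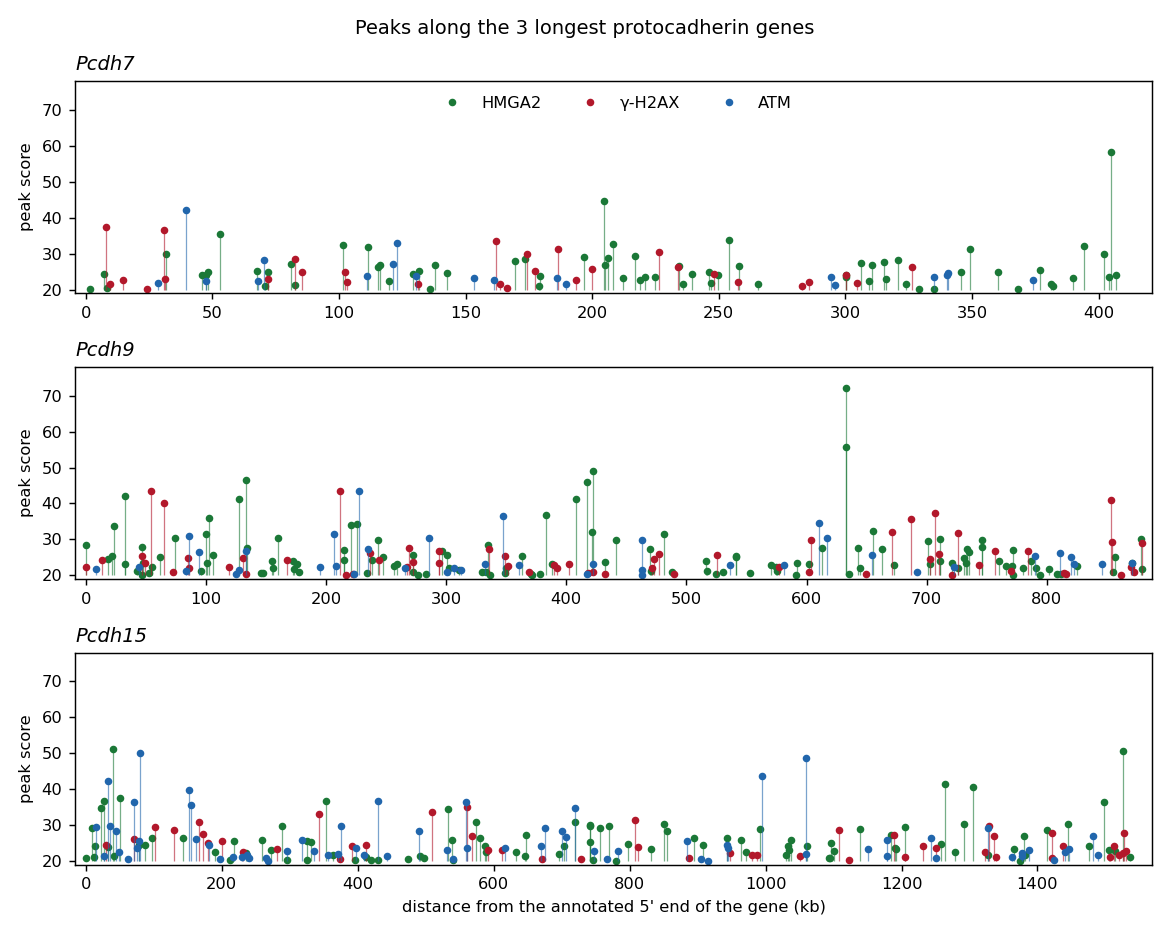
Score of every peak (vertical axis, -10 log10 p, from 20) by its distance from the annotated 5′ end in kb (horizontal axis) along Pcdh7, Pcdh9 and Pcdh15. HMGA2 (green), γ-H2AX (red) and ATM (blue) peaks run along each gene, with no γ-H2AX peak in the last 83.4 kb of Pcdh7 and the highest score, 72.01 for HMGA2, 633 kb into Pcdh9.

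The highest-scoring peak in any protocadherin was an HMGA2 peak in Pcdh9, at 93259950 to 93260220 with a score of 72.01, beside another at 93259695 to 93259925 with a score of 55.58. In Pcdh7 the highest HMGA2 scores were 58.16 at 58120785 to 58121148, near the 3′ end, and 44.69 at 57920523 to 57920937. In Pcdh15 they were 51.12 at 73135908 to 73135991 and 50.51 at 74622208 to 74622461. For γ-H2AX the highest scores were 43.61 in Pcdh9 (93681103 to 93681199), 37.3 in Pcdh7 (57724056 to 57724319, 5.97 kb downstream of the start site) and 34.96 in Pcdh15. For ATM they were 50.02 in Pcdh15 (73176631 to 73176712), 43.61 in Pcdh9 (93665439 to 93665548) and 42.15 in Pcdh7 (57755622 to 57755772). Exon, intron and UTR positions were not analysed here.

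The 7 unclustered genes under 100 kb held 17 HMGA2, 12 γ-H2AX and 7 ATM peaks together, or 77.7 (45.2 to 124), 54.8 (28.3 to 95.8) and 32.0 (12.9 to 65.9) per Mb, with intervals that include the values of all genes. Pcdh10, a delta-protocadherin of axon growth (chromosome 3, 45378398 to 45434579), held 8 HMGA2 peaks, 4 γ-H2AX peaks and no ATM peak, with its highest HMGA2 score of 42.4 at 45388294 to 45388623. Pcdh17 (chromosome 14, 84443563 to 84537565) held 5 HMGA2, 6 γ-H2AX and 2 ATM peaks. A pair of adjacent HMGA2 peaks with scores of 40.83 and 36.49 lay at 84516346 to 84516747 in Pcdh17, and its γ-H2AX peaks scored at most 28.27. Pcdh18, another delta-protocadherin (chromosome 3, 49743291 to 49757383), held 3 peaks of HMGA2, 1 of γ-H2AX and 1 of ATM. Pcdh1, known from airway epithelium (chromosome 18, 38185914 to 38212048), held no HMGA2 peak, 1 γ-H2AX peak and 4 ATM peaks.

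Within 1 kb of a gene end, HMGA2 peaks were found at 4 of the 10 unclustered genes, γ-H2AX peaks at 2 and ATM peaks at 1. Among all genes these shares were 18.1%, 24.1% and 16.5%. The 4 genes with HMGA2 were Pcdh9 with 3 peaks (highest score 30.07), Pcdh20 (23.41), Pcdh15 (20.94) and Pcdh18 (20.24). The HMGA2 peak of Pcdh15 spans its annotated 5′ end, and those of Pcdh20 and Pcdh18 lie at the 3′ end. The genes with γ-H2AX were Pcdh9 (29.13 at the 3′ end and 22.29 at the 5′ end) and Pcdh1 (29.58 and 20.64). The gene with ATM was Pcdh1 (22.77 and 22.61). At the 3′ end of Pcdh9 the γ-H2AX peak (93013777 to 93013960) lay between a pair of HMGA2 peaks (93013568 to 93013730 and 93013976 to 93014219) without touching either. Thus Pcdh9 had HMGA2 and γ-H2AX peaks at both ends and no ATM peak at either.

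Within 5 kb of an end, HMGA2 peaks were found at 7, γ-H2AX peaks at 6 and ATM peaks at 5 unclustered genes, where 52.9%, 60.0% and 53.1% of all genes had such a peak. An ATM peak of 35.92 lay 4.51 kb upstream of the start site of Pcdh20, beside an HMGA2 peak of 20.66. Pcdh8 had an ATM peak (24.61) and Pcdh12 a γ-H2AX peak (28.88) as their only peaks within 5 kb. No unclustered member was touched within 1 kb of an end by a region of the authors' promoter lists, which reached 9.41% of all genes for γ-H2AX and 3.55% for ATM. How the authors chose those promoters is not given in the sources used here.

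Peaks of different antibodies rarely coincided in the unclustered genes. Of the 306 HMGA2 peaks there, 8 (2.61%, Wilson 95% interval 1.33 to 5.07%) overlapped a γ-H2AX peak by at least 1 bp, where 2.72% of the whole autosomal HMGA2 list did, and 7 (2.29%) overlapped an ATM peak, against 2.43% of the list. Of the 149 γ-H2AX peaks, 7 (4.70%, interval 2.29 to 9.38%) overlapped an HMGA2 peak and 4 (2.68%) an ATM peak, against 3.25% and 2.68% of the list. Of the 135 ATM peaks, 8 (5.93%, interval 3.03 to 11.3%) overlapped an HMGA2 peak and 4 (2.96%) a γ-H2AX peak, against 3.09% and 2.84% of the list. The shares were close to those of the lists, except that the list's share of ATM with HMGA2 lies near the lower bound in these genes.

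Among peaks with a score of at least 30, of which the unclustered bodies held 50 HMGA2, 18 γ-H2AX and 19 ATM, there were 0 overlaps. The share of the whole lists at that score is not given here, so the 0 cannot be read as a trait of these genes. A single place in the unclustered bodies carried all 3 antibodies. It lies 422 kb into Pcdh9, with an HMGA2 peak at 93470837 to 93471040 (49.04), a γ-H2AX peak at 93470644 to 93470848 (20.89) and an ATM peak at 93470710 to 93470864 (23.09). Of the other overlaps, 3 HMGA2 peaks in Pcdh9 met a γ-H2AX peak only, the highest γ-H2AX score among them being 31.88 at 93166434 to 93166633. In Pcdh15 the HMGA2 overlaps were with ATM alone, at 3 HMGA2 peaks scoring 20.38, 26.36 and 21.68. In Pcdh7, 4 HMGA2 peaks met γ-H2AX and 2 met ATM.

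The clustered genes lie over 912 kb of chromosome 18, the alpha cluster at 36930285 to 37188897, the beta cluster at 37264998 to 37521419 and the gamma cluster at 37661775 to 37841873. Over that stretch, genes and the sequence between them together, there were 51 HMGA2, 29 γ-H2AX and 52 ATM peaks. HMGA2 density was 55.9 per Mb (41.7 to 73.6), γ-H2AX density 31.8 (21.3 to 45.7) and ATM density 57.0 (42.6 to 74.8). The genes of chromosome 18 together had 65.4, 59.4 and 51.0 per Mb. Set against all protein-coding bodies, the γ-H2AX ratio of the locus was 0.561 (0.376 to 0.806), below 1 beyond counting error, and the ratios of HMGA2 (0.936) and ATM (1.21) were not. The locus includes sequence between the protocadherin genes. Most of it also lies in the set of all bodies, because the protein-coding gene Gm37013, 889226 bp long, runs from the alpha into the gamma cluster. A γ-H2AX ratio below 1 was not particular to the locus. It was 0.627 (0.558 to 0.702) in other cadherins, 0.797 (0.779 to 0.816) in other genes of 500 kb or more and 0.756 (0.682 to 0.836) in the flanks of unclustered members. The genes of 500 kb or more include Gm37013, and the flanks take in part of the gamma cluster. Variable exons of cluster genes are alike in sequence, so that reads from one may have been placed in another or left out, and how the authors treated such reads is not given in the sources used here.

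**Figure D5:**
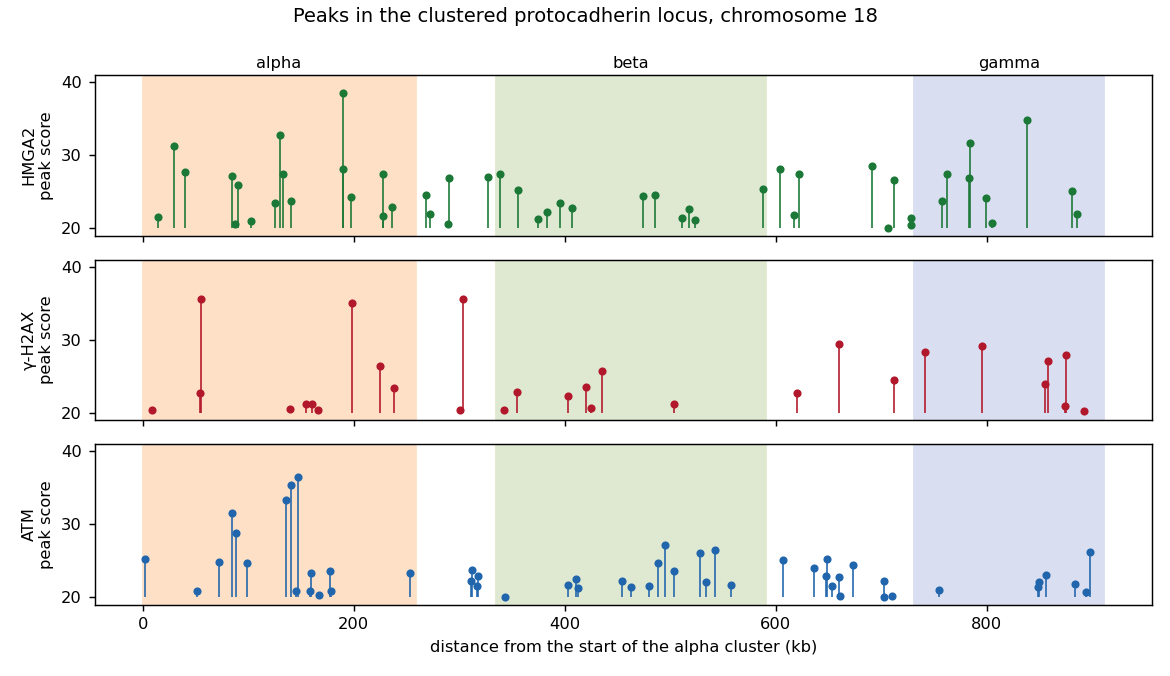
Score of every peak (vertical axis, -10 log10 p) by distance in kb from the start of the alpha cluster (horizontal axis) over the clustered protocadherin locus, 1 panel each for HMGA2, γ-H2AX and ATM. Shading marks the alpha, beta and gamma clusters; 51 HMGA2, 29 γ-H2AX and 52 ATM peaks are spread over genes and the stretches between them, all with scores under 40.

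Per cluster, each peak counted once, the alpha genes held 17 HMGA2, 10 γ-H2AX and 16 ATM peaks over 259 kb, or 65.7 (38.3 to 105), 38.7 (18.5 to 71.1) and 61.9 (35.4 to 100) per Mb. The gamma genes held 9, 7 and 7 over 180 kb, or 50.0 (22.9 to 94.9), 38.9 (15.6 to 80.1) and 38.9 (15.6 to 80.1) per Mb. The beta genes, short and without shared exons, held 2, 0 and 3 over 75.6 kb of body, and the 0 for γ-H2AX has an upper Poisson bound of 3.69 peaks, or 48.8 per Mb. Counted with the sequence between its genes, the beta cluster held 12, 7 and 14 peaks over 256 kb, which is 27.3 γ-H2AX peaks per Mb (11.0 to 56.2). The gap between the alpha and beta clusters held 5, 2 and 4 peaks and the gap between the beta and gamma clusters 8, 3 and 11, in the same order of antibodies. In the alpha and gamma clusters every interval includes the density of all genes. In the beta cluster γ-H2AX density lay below it, with a ratio of 0.482 (0.194 to 0.993) over the whole cluster, and the HMGA2 and ATM intervals include it.

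Because alpha and gamma genes are nested, one peak can lie in many of them. A body peak was found for HMGA2 in 14 of 14 alpha, 2 of 22 beta and 20 of 21 gamma genes, for γ-H2AX in 14, 0 and 21, and for ATM in 14, 3 and 21. Over the 57 genes the shares were 63.2% with HMGA2, 61.4% with γ-H2AX and 66.7% with ATM, and over all genes 50.0%, 56.3% and 52.6%. These counts follow from a few shared peaks and are not 57 separate observations. The highest HMGA2 score in the locus was 38.48 at 37119835 to 37120091, the highest γ-H2AX score 35.63 at 36985196 to 36985429 and the highest ATM score 36.49 at 37077586 to 37077690, all within the alpha cluster. A γ-H2AX peak of the same score, 35.63, lay between the alpha and beta clusters at 37234087 to 37234314. Of the 51 HMGA2 peaks of the locus, 0 overlapped a peak of either other antibody. In the whole HMGA2 list 2.72% overlapped γ-H2AX and 2.43% overlapped ATM. Of the 29 γ-H2AX peaks, 1 overlapped an ATM peak, where 2.68% of the list did. With so few peaks these counts show no difference from the lists.

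The ends that each cluster gene does not share tell genes apart. Within 1 kb of an end, HMGA2 peaks lay at 10 of the 57 cluster genes, γ-H2AX peaks at 6 and ATM peaks at 7. By cluster the HMGA2 counts were 2 alpha, 5 beta and 3 gamma genes, the γ-H2AX counts 2, 2 and 2, and the ATM counts 1, 5 and 1. As shares of the 57 genes these were 17.5% for HMGA2, where all genes had 18.1%, 10.5% for γ-H2AX, where all genes had 24.1%, and 12.3% for ATM, where all genes had 16.5%. Alpha genes share one end, as do gamma genes, so that these genes have fewer separate windows than others. The highest HMGA2 scores there were at Pcdhga7 (31.73, 415 bp outside), Pcdha5 (31.3, 595 bp outside), Pcdha12 (25.88, 513 bp inside), Pcdhb22 (25.33, 424 bp outside) and Pcdhb9 (24.44, 270 bp outside). For γ-H2AX they were at Pcdhga8 (29.14, 26 bp inside), Pcdhgc3 (27.95, 364 bp outside), Pcdhb6 (22.29, 780 bp outside), Pcdhac1 (21.24, 231 bp inside) and Pcdhb8 (20.64, 8 bp outside). For ATM they were at Pcdhb11 (27.23, across its end), Pcdhb15 (26.53, 613 bp outside), Pcdhac1 (23.42, 364 bp outside), Pcdhb7 (22.5, 843 bp outside) and Pcdhb6 (21.68, 370 bp outside), the last sharing its score with Pcdhb17.

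Pcdhb6 was the single cluster gene with peaks of all 3 within 1 kb of an end, with γ-H2AX (37332921 to 37333080) and ATM (37333327 to 37333490) at one end and HMGA2 (37336831 to 37336987, 22.77) at the other. Pcdhac1 had γ-H2AX and ATM at the same end, 231 bp inside and 364 bp outside it. Pcdhac1 and Pcdhgc3 are C-type genes, which are expressed without random choice, and of the 5 C-type genes HMGA2 peaks marked the own end of 1, γ-H2AX peaks of 2 and ATM peaks of 1. In the same order the counts were 2, 1 and 0 of the 12 other alpha genes and 2, 1 and 1 of the 18 other gamma genes. These are too few to tell the kinds apart, and the share of all genes for a single end is not given here. At the end that all alpha genes share, 1 ATM peak (23.42) lay within 5 kb, which is why the ATM count at 5 kb was 14 of 14 alpha genes. At the shared end of the gamma genes no peak of any list lay within 5 kb. Over all 57 genes, 31 had HMGA2, 11 had γ-H2AX and 28 had ATM within 5 kb of an end. The HMGA2 share was 54.4%, near the 52.9% of all genes, the ATM share 49.1%, near 53.1%, and the γ-H2AX share 19.3%, under 60.0%. Shared ends make these shares hang on few peaks, and the 57 genes are not separate observations. The 1 ATM peak at the shared alpha end reaches all 14 alpha genes, while no γ-H2AX peak lay at either shared end. The genes with γ-H2AX were 2 alpha, 4 beta and 5 gamma genes. They were reached by 3, 4 and 5 separate peaks. These counts rest on peaks near the threshold: with a score of at least 30, 2 cluster genes had HMGA2 within 1 kb of an end and none had γ-H2AX or ATM, and within 5 kb 3 had HMGA2, 0 γ-H2AX and 1 ATM. The share of all genes at that score is not given here, so the drop cannot be read as a trait of the cluster genes.

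Regions of the authors' promoter lists, which name no genes, were assigned to genes here by position and met cluster genes and no unclustered ones. The 10 unclustered genes are too few for that absence to show a difference from all genes. Within 1 kb of an end, the γ-H2AX promoter list touched Pcdha2 (peak score 20.38), Pcdhb8 (20.64), Pcdhga8 (29.14) and Pcdhgc3 (27.95), 5.97% of the 67 members against 9.41% of all genes. The ATM promoter list touched Pcdhac1 (23.42), Pcdhb15 (26.53) and Pcdhga4 (21.09), 4.48% of the members against 3.55% of all genes. No gene was in both at that distance.

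Other adhesion genes and the factors that act on the clusters were described from lists chosen with earlier results known. The 41 other cadherin superfamily genes had 57.9 HMGA2, 35.5 γ-H2AX and 36.7 ATM peaks per Mb of body, so that the unclustered protocadherins stood above them for HMGA2 with 99.7 per Mb and for γ-H2AX with 48.6 per Mb, intervals not overlapping (52.9 to 63.3 and 31.6 to 39.8 in the other cadherins). The unclustered values include Pcdh7 and Pcdh9, which carry them, and Pcdh15 had 61.8 HMGA2 and 30.3 γ-H2AX peaks per Mb. Among the other cadherins, Cdh18 had 117 and Cdh12 96.6 HMGA2 peaks per Mb, both long classical cadherins, and Cdh13 had 18.6. HMGA2 peaks lay within 1 kb of an end of 11 of the 41, γ-H2AX peaks of 5 and ATM peaks of 2. These are 26.8%, 12.2% and 4.88% of the other cadherins, set beside 18.1%, 24.1% and 16.5% of all genes. The highest scores were at Fat4 (36.7), Cdh17 (27.3) and Cdh11 (27.23) for HMGA2, at Fat1 (25.33), Cdhr3 (24.26) and Dchs2 (23.81) for γ-H2AX, and at Cdh10 (22.22) and Dchs1 (20.9) for ATM.

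The 16 regulators of clustered protocadherins, such as the insulator protein CTCF, cohesin and its loaders, and the silencing factors SMCHD1 and SETDB1, had 116 HMGA2, 79.5 γ-H2AX and 58.6 ATM peaks per Mb. At an end, within 1 kb, HMGA2 peaks lay at 5 of the 16 (31.2%, all genes 18.1%), γ-H2AX peaks at 3 (18.8%, all genes 24.1%) and ATM peaks at 2 (12.5%, all genes 16.5%). HMGA2 peaks lay at Rad21 (30.65), a cohesin subunit, at Smchd1 (23.81) and at Mau2 (22.52), a cohesin loader. Peaks of γ-H2AX lay at Nipbl (24.75), the partner of MAU2, at Setdb1 (24.11) and at Smchd1 (22.36). ATM peaks lay at Rest (29.81), a repressor of neuronal genes, and at Wapl (28.51), which releases cohesin.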

How the data were processed

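Peaks were called by the authors in each wild-type library with MACS14, with no model, a p threshold of 0.01 and a shift size of 30 bp, per the labels. Trimmomatic, Bowtie2, SAMtools and HOMER are named without versions, and mm10 as the build, per the submitters' processing notes; the control library of the calls and the treatment of reads with several matches are not given in the sources used here. The deposited score of each peak was used within its list only, to name and order peaks and to set a stricter threshold. The deposited promoter lists hold region bounds only (unit other, no measured value); 2220 of 2220 γ-H2AX regions and 788 of 866 ATM regions were identical to a peak. A deposited table with 9 value columns over all HMGA2 peaks, and 2 plotting configurations, were not used.

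From these, peaks touching a gene body or a window at either gene end by at least 1 bp were counted (Python 3.11.15, numpy 2.4.6, pandas 2.3.3), and each peak once per set of genes. Density intervals are exact Poisson, ratios exact conditional binomial and shares Wilson (scipy 1.17.1), all 95% and for counting error only. Peak density moves with depth and with the threshold, so antibodies were not ranked by density. Counts were checked against bedtools 2.31.1 and on simulated lists. There were no tests, because each group is 1 library. Each unclustered member is named; so are, per antibody, the 5 cluster genes and the 3 genes of each other list with the highest score within 1 kb of an end. Other genes or peaks were chosen after their values were seen. The members and lists were chosen with earlier results of these data known. The annotation gives no strand for clustered genes, Pcdh1 and Pcdh12, and no exons. Alternatives were a score of at least 30, peak midpoints, merged peaks, other windows, flanks and overlaps, and members left out.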

Additional observations from a re-analysis of the deposited data

How the results depend on the processing

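No paired analysis was possible because each antibody has 1 library and no test was made. Of 90 alternatives over 30 results (the unclustered members, and the number of peaks in each cluster), 49 stayed within the spread of counting error or within 1.5 times the count, among them all 27 that placed peaks by their midpoint. Keeping peaks with a score of at least 30 moved 26. Of the counts of cluster genes, taken apart from these, it moved 8 of 9: bodies with γ-H2AX were 13 and with ATM 12 (HMGA2 31), genes with a peak within 1 kb of an end 2 (HMGA2), 0 (γ-H2AX) and 0 (ATM), and within 5 kb 3, 0 and 1. Unclustered genes with such a peak in the body were then 3 (γ-H2AX) and 3 (ATM). Within 1 kb of an end they were 1 (HMGA2), 0 (γ-H2AX) and 0 (ATM), and within 5 kb 2, 0 and 1. Shares of all genes at that score are not given here, so these gene counts show no difference from other genes. Unclustered bodies held 50 HMGA2, 18 γ-H2AX and 19 ATM peaks of that score, alpha genes 3, 2 and 4, and gamma genes 2, 0 and 0, while beta genes held 0 HMGA2 and 0 ATM peaks. Density ratios to all genes became 2.33 for HMGA2 and 1.33 for ATM, and ratios to flanks 1.89 and 1.22; the ATM ratios changed side of 1 with intervals that include it (0.797 to 2.07 and 0.674 to 2.12). No overlap between antibodies was left (0 of HMGA2 with γ-H2AX, 0 of HMGA2 with ATM, 0 of γ-H2AX with ATM), and the whole-list share at that score is not given here.

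With Pcdh15 left out, the ratios to all genes were 2.32 for HMGA2 and 1.19 for γ-H2AX, and those to flanks 1.67 and 1.54. With Pcdh7 and Pcdh9 left out, added after the data were seen, they were 1.07 and 0.587, and 0.828 and 0.723. The pooled flank ratios do not match each body to its own flanks, since bodies count by length. ATM ratios stayed near 1 under both. Windows of 500 bp left 0 unclustered genes with ATM at an end. Of cluster genes they left 5 with HMGA2, 5 with γ-H2AX and 4 with ATM. Shares of all genes for that window are not given here, so these counts show no difference from other genes. Asking for an overlap of at least 50% of the peak gave 3, 3 and 2 shared peaks for HMGA2 with γ-H2AX, HMGA2 with ATM and γ-H2AX with ATM, and asking for a peak within 1 kb gave 50, 37 and 18. Whole-list shares at these settings are not given here, so the counts cannot be read as a trait of these genes. Counts under a stricter score, window or overlap can only fall, and those at a wider distance can only rise. The cause of the shifts in ratios was not tested. The precision of every count is limited by 1 library and by scores near the threshold.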
